A study of Mus musculus with 14 samples.

Results

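Immediate early genes are switched on within minutes of a growth factor, a stress or a wound, by transcription factors that the cell already holds. The set described here holds 10 of them: the AP-1 genes Fos, Fosb, Jun, Junb and Jund, the zinc finger factors Egr1 and Klf4, the stress factor Atf3, and Ier2 and Ier3. The members were chosen by gene symbol, as the probe sets that the platform annotation gives to these names, and all 10 were found among the 8251 genes named on the array. They have 16 probe sets. Of these, 12 were bright enough to be tested and 4 were removed as dim (1 each of Fos, Egr1, Klf4 and Atf3), so that all 10 genes were tested, among 6397. The removed probe sets of Klf4 and Atf3 were below the floor (an intensity of 101.42, to which lower values were raised) on all 14 arrays, and those of Fos and Egr1 reached at most 722 and 531.

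The samples came from MMTV-neu mice, which carry the neu oncogene, a receptor tyrosine kinase gene, under a viral promoter (MMTV, mouse mammary tumor virus) that is active in mammary epithelium. The groups were 5 tumors (numbered 22, 24, 26, 50 and 52), 2 further tumors that the labels keep apart as set B (80 and 81), 4 preneoplastic glands taken from around a tumor of such mice (adjacent gland, 23, 25, 49 and 51), and 3 age-matched wild-type glands without the transgene (40, 41 and 42). A wild-type sample is a pool of RNA from 5 mice: pool 40 came from mice of 31 weeks (87.5% FVB, 12.5% CF-1), and pools 41 and 42 from mice of 41 weeks (97% FVB, 3% CF-1). The strain and age of the transgenic mice are not given in the sources used here, and nothing says that each tumor or gland came from its own animal, so a p-value here reflects only sample-to-sample spread, which may be technical.

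The neu receptor feeds the RAS and MAP kinase pathway, the main route by which growth factors switch on Fos, Egr1 and Ier3. The protein of Fos joins one of the Jun proteins to form AP-1, which binds short sites in the promoters of genes for division, matrix breakdown and survival. Such genes also respond to handling and to the time between death and freezing of a tissue, so their levels in dissected tissue are known to vary.

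The promoters of the members with the largest rise and the largest fall are shown because Ier3 and Klf4 moved in opposite directions in the same tumors. Promoter windows were found in the RefSeq table (GRCm38.p6) for 8 of the 10 members, all but Ier2 and Egr1. Each sequence below holds the 250 bases upstream of the start of the gene, 5′ to 3′ on the strand of the gene. Capitals mark matches to the motifs searched. Ier3 lies on the plus strand (chr17:35821463-35821712) and Klf4 on the minus strand (chr4:55532476-55532725).
Ier3: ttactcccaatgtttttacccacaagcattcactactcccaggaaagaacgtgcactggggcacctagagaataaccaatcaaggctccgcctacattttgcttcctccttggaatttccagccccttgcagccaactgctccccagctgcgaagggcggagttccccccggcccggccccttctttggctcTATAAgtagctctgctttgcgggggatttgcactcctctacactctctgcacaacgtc
Klf4: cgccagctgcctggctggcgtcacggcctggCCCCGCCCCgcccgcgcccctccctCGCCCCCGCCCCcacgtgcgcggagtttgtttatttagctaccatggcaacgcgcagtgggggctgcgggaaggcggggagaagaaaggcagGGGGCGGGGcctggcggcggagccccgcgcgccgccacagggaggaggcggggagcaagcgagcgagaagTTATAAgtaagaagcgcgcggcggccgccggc

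The 6 motifs, searched on both strands, were the CArG box bound by SRF (by name), the AP-1 site TGACTCA or TGAGTCA, the cAMP response element TGACGTCA, the EGR site GCGGGGGCG or GCGTGGGCG, the KLF and SP site GGGGCGGGG, and the TATA letters TATAA, the last chosen after the windows had been read. In the Ier3 window the TATAA letters, from 58 to 54 bases before the start, were the only match. The Klf4 window held the EGR site from 194 to 186 bases before the start, overlapping a KLF and SP site from 191 to 183, and further KLF and SP sites from 219 to 211 and from 102 to 94. It also held TATAA on both strands, overlapping, from 32 to 27 bases before the start. Among 32851 promoter windows of this length, 1.47% held a CArG box, 4.46% an AP-1 site, 1.55% a cAMP response element, 3.06% an EGR site, 10.38% a KLF and SP site and 22.78% TATAA. A match is a description of letters, and a missing match says only that the letters are not in this window.

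Values are the deposited intensities on a linear scale, differences are of group means of log2 intensity, ± is a standard error, and a gene is called where limma's adjusted p was under 0.05. In tumors against wild-type gland, Ier3, Ier2 and Junb rose, Klf4 fell, and Fos, Fosb, Jun, Jund, Egr1 and Atf3 did not pass the test. That is 4 of 10 members called, where limma called 30.6% of all 6397 genes (15.8% higher and 14.7% lower), so the count of members is near the background. All 5 tumors lay above all 3 pools for 3 members and below them for 1, where 18.8% of all genes lay wholly above and 17.0% wholly below. The rise of Ier3 was number 12 among all genes. In adjacent gland against wild-type gland no member was called, and Ier3 had the smallest p of the set. The median log2 difference of the 10 members was 0.29 in tumors against wild-type gland, beside 0.13 over all genes.

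**Figure D1:**
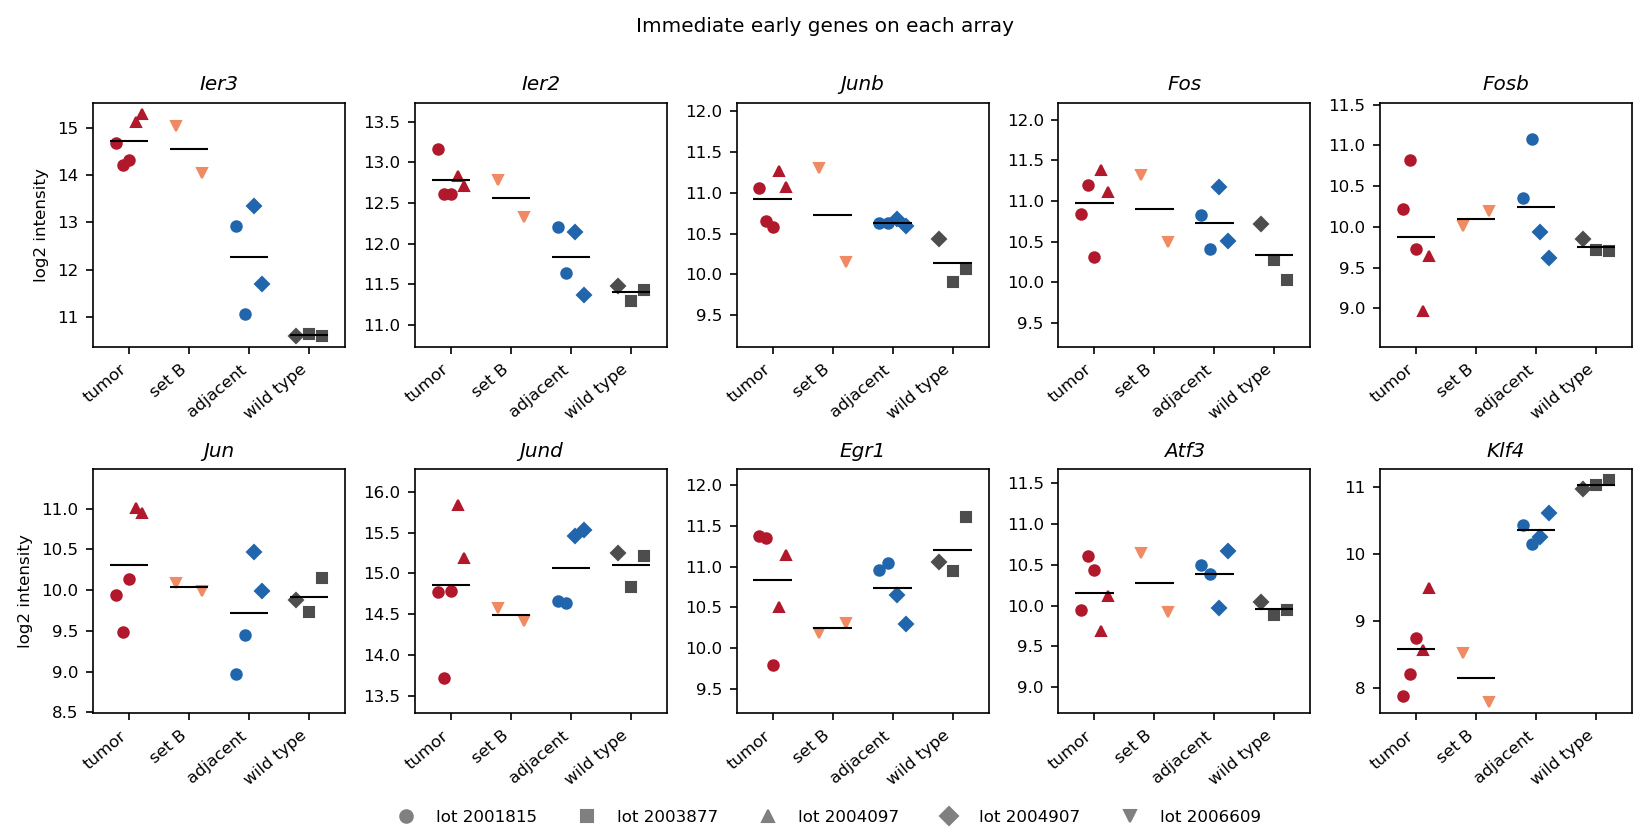
Log2 intensity of the 10 genes on each of the 14 arrays, by group, with the group mean as a bar and the lot as the marker shape. For Ier3 all 7 tumors lie above all adjacent glands and wild-type pools, for Klf4 all 7 lie below them, and for Fos, Fosb, Jun, Jund, Egr1 and Atf3 the 5 tumors overlap the wild-type pools.

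Lots and tissue makeup differed between groups. Labels give each sample a lot number, without saying what the lot is of: lot 2001815 holds tumors 22, 24 and 26 with adjacent glands 23 and 25, lot 2004907 holds adjacent glands 49 and 51 with pool 40, lot 2004097 tumors 50 and 52, lot 2003877 pools 41 and 42, and lot 2006609 set B. No lot holds tumors together with wild-type gland, and set B and its lot cannot be told apart. With lot as a fixed block, by the numbers as given, tumors against adjacent gland therefore rests on lot 2001815 alone. Adjacent against wild-type gland rests in that fit on lot 2004907, with pool 40 as the only pool. Tumors against wild-type gland joins both differences, so tumors 50 and 52 and pools 41 and 42 do not enter its value. The summed intensity of 6 fibroblast markers was 9987 to 25246 in tumors, 11762 to 14740.2 in set B, 71411 to 143951 in adjacent gland and 97553 to 120351 in wild-type gland. Summed adipocyte markers (6 genes measured of 8) ranged from 4009.6 to 9495 in tumors, from 4873 to 5826 in set B, from 77175 to 129279.7 in adjacent gland and from 156089 to 235600.3 in wild-type gland. For both lists the set B sums lie within the range of the tumors. The sum of 6 skeletal muscle markers was 4563.5 to 11464 in tumors, 3888.5 to 4956 in set B, 34508 and 42053 in adjacent glands 23 and 25, 4030.9 and 4082.6 in adjacent glands 49 and 51, and 57777 to 107585 in wild-type gland. Of these 6 genes, 5 were called lower and 1 higher in tumors against wild-type gland. Pvalb alone was at 3546 to 7342 in tumors and 3034.5 to 3924 in set B. The part of muscle in the differences of the members was not tested. In bulk RNA, fewer cells of a type and less RNA per cell cannot be told apart. Of the markers, Cidec was at the floor in all 5 tumors. In both set B tumors Retn, Cidec, Ogn, the muscle markers Myh4 and Tnnt3, the basal marker Cnn1 and the endothelial marker Vwf were at it.

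Ier3 encodes a small protein induced by growth factors, radiation and NF-kappaB, known for its part in cell survival. Its intensity was 26016, 18882, 20413, 35703 and 40116 in tumors 22, 24, 26, 50 and 52, and 33623 and 16935 in set B tumors 80 and 81. Adjacent glands 23, 25, 49 and 51 had 7815, 2137, 10352 and 3345, against 1556, 1588 and 1552 in wild-type pools 40, 41 and 42. The tumors of both sets lie above every adjacent gland, and each adjacent gland lies above each pool. The tumors spread over 2.12-fold and the adjacent glands over 4.84-fold, while the 3 pools lie within 1.02-fold of each other. Each pool mixes RNA of 5 mice, and pools 41 and 42 share a lot, an age and a strain mix. The spread of the pools is therefore not directly comparable with that of the other groups.

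In tumors, Ier3 rose 17.3-fold against wild-type gland (log2 difference 4.11 ± 0.42 SE, n = 5 and 3, limma adjusted p = 2.88e-06). Against adjacent gland it rose 5.51-fold in tumors (2.46 ± 0.39, n = 5 and 4, limma adjusted p = 0.000372), the 8th largest rise among 6397 genes. With lot as a fixed block the log2 difference was 4.32 ± 0.87 in tumors against wild-type gland (limma adjusted p = 0.0165) and 2.40 ± 0.52 in tumors against adjacent gland (limma adjusted p = 0.0159). Within lot 2001815, the only lot with tumors and adjacent glands by the numbers as given, it was the same 2.40 (limma adjusted p = 0.0761, not called) over 3 tumors and 2 glands. The fixed block takes its value against adjacent gland from these same arrays, and only the estimate of spread differs. Its value against wild-type gland also needs lot 2004907, with pool 40 as the only pool.

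In adjacent gland Ier3 was not called. Its level was 3.13-fold that of wild-type gland (log2 difference 1.65 ± 0.44, n = 4 and 3, unadjusted p = 0.0018, limma adjusted p = 0.0791), number 58 among the differences toward higher. Without adjacent gland 25, the lowest of the 4, the log2 difference was 2.05 and the call was made (limma adjusted p = 0.0185). The other 6 fits with 1 array left out made no call (log2 difference down to 1.29, limma adjusted p up to 0.261). Without all arrays of lot 2001815 the log2 difference was 1.91 (limma adjusted p = 0.0374). With lot as a random block it was 1.73 and was not called (limma adjusted p = 0.0911). With lot as a fixed block it was 1.92 ± 0.70 (limma adjusted p = 0.536), which is also the difference within lot 2004907, over glands 49 and 51 and pool 40 (limma adjusted p = 0.868).

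Markers of luminal epithelium moved with Ier3. The summed intensity of the 10 markers was 69018 to 108605 in tumors, 65383 to 88921 in set B, 45889.8 to 77209 in adjacent gland and 41511 to 43889 in wild-type gland. Over the adjacent glands it was 77209 in gland 49, 69278 in gland 23, 52644 in gland 51 and 45889.8 in gland 25, which is also the order of Ier3 in these glands. Of the 10, 7 rose in tumors against wild-type gland, among them Epcam (log2 difference 2.63), an adhesion protein of epithelial cells, while Krt19, a keratin of luminal cells, fell by 5.78 and was at the floor in 3 of 5 tumors. The part of epithelial content in the Ier3 result was not tested.

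**Figure D2:**
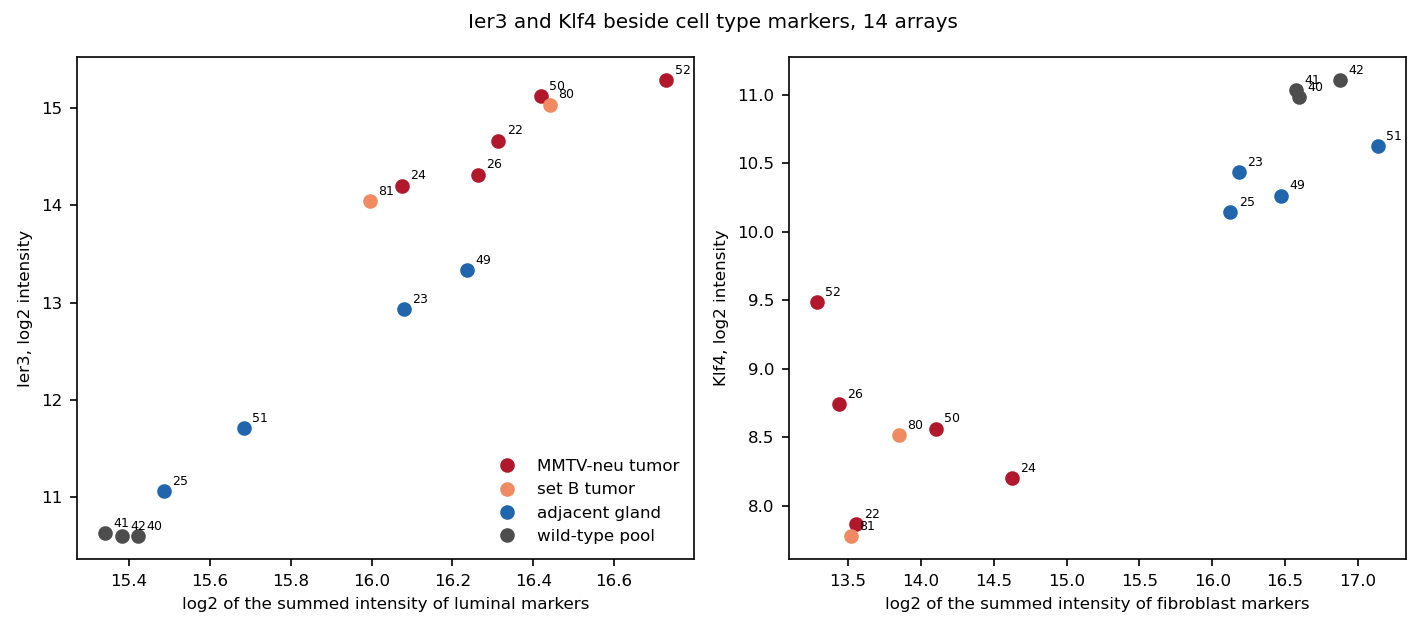
Left, log2 intensity of Ier3 against the log2 summed intensity of 10 luminal epithelial markers; right, log2 intensity of Klf4 against that of 6 fibroblast markers; each point is 1 of the 14 arrays with its number. Among the adjacent glands, Ier3 runs from 2137 to 10352 in the order of the luminal sum from 45889.8 to 77209, and tumors with fibroblast sums of 9987 to 25246 have the low Klf4.

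Ier2 encodes a nuclear protein that growth factors induce early. Its intensity was 9148, 6246, 6274, 7289 and 6681 in the 5 tumors, 7073.5 and 5136 in set B, 4718, 3193, 4536 and 2654 in the adjacent glands, and 2855, 2526 and 2771 in the pools. Every tumor, set B included, lies above every adjacent gland and every pool, while adjacent gland 51 lies among the pools. Ier2 rose 2.60-fold in tumors against wild-type gland (log2 difference 1.38 ± 0.21, n = 5 and 3, limma adjusted p = 0.000129) and 1.92-fold against adjacent gland (0.94 ± 0.19, n = 5 and 4, limma adjusted p = 0.00302). With lot as a fixed block neither was called, at log2 differences of 1.15 ± 0.47 (limma adjusted p = 0.22) and 0.87 ± 0.28 (limma adjusted p = 0.0883), and within lot 2001815 the tumors differed from the adjacent glands by 0.87 (limma adjusted p = 0.172). Ier2 had the smallest spread within groups of all 10 members, an SD of 0.29 on the log2 scale, at percentile 26.6 of all genes, where Ier3 had the widest, 0.69, at percentile 85.7.

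Klf4, a zinc finger factor known for holding many epithelia in a differentiated, non-dividing state, went the other way. Its intensity was 233, 294, 428, 379 and 718 in the 5 tumors and 367 and 219.6 in set B. The adjacent glands had 1386, 1132, 1228 and 1577, against 2019, 2096 and 2206 in the pools. All 7 tumors lie below all adjacent glands, and all adjacent glands lie below all pools. Tumor 52, which has the highest Ier3, also has the highest Klf4 of the tumors.

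In tumors Klf4 fell by 2.47 ± 0.32 on the log2 scale against wild-type gland, which is 5.53-fold lower (n = 5 and 3, limma adjusted p = 2.98e-05). It was number 229 among the falls. Against adjacent gland Klf4 fell by 1.79 ± 0.29 in tumors, or 3.47-fold (n = 5 and 4, limma adjusted p = 0.00055). With lot as a fixed block the log2 differences were -2.56 ± 0.62 (limma adjusted p = 0.0386) and -2.02 ± 0.37 (limma adjusted p = 0.0063), and within lot 2001815 the tumors differed from the adjacent glands by -2.02 (limma adjusted p = 0.0586). In adjacent gland against wild-type gland Klf4 differed by -0.67 ± 0.34 (n = 4 and 3, limma adjusted p = 0.363). Summed fibroblast markers were low in the same tumors (9987 to 25246, against 97553 to 120351 in wild-type gland), and so were those of basal epithelium (4 genes, 1541 to 3245 in tumors, against 15565 to 18885 in wild-type gland) and of endothelium (6 genes, 2737 to 3277, against 10519.6 to 13974). Within the tumors the orders differed: tumor 52 had the lowest fibroblast sum (9987) and the highest Klf4 (718). Tumor 24 had the highest sum (25246), with Klf4 at 294. Among the adjacent glands, gland 25 had the lowest of both (71411 and 1132) and gland 51 the highest of both (143951 and 1577). Between them the order was reversed, with gland 23 at 74321 and 1386 and gland 49 at 91054 and 1228. The part of fewer stromal and basal cells in the Klf4 result was not tested.

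**Figure D3:**
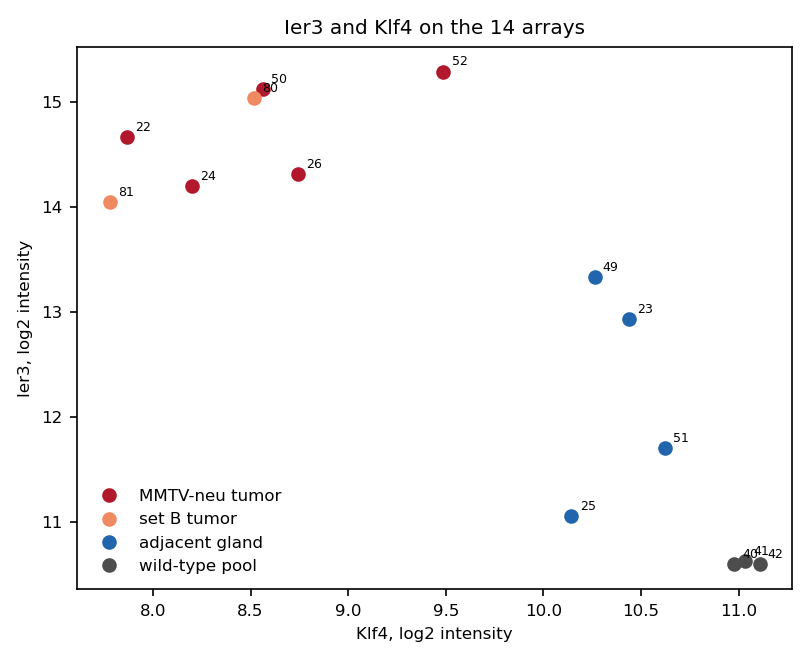
Log2 intensity of Ier3 against that of Klf4, with 1 point per array and its number. The 7 tumors stand at high Ier3 (16935 to 40116) and low Klf4 (219.6 to 718), the 4 adjacent glands in between, and the 3 wild-type pools at low Ier3 (1552 to 1588) and high Klf4 (2019 to 2206).

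Of the AP-1 genes, Junb alone was called, and with less margin. Junb is a partner of Fos proteins that can also hold back Jun. Its intensity on the probe set with the highest mean was 2139, 1608, 1531, 2457 and 2155 in the 5 tumors, 2529 and 1135 in set B, 1578, 1582, 1643 and 1546 in the adjacent glands, and 1381, 960.2 and 1071 in the pools. Tumors and adjacent glands lie above all pools, whereas set B tumor 81 lies among them. Junb rose 1.73-fold in tumors against wild-type gland (log2 difference 0.79 ± 0.25, n = 5 and 3, limma adjusted p = 0.0256), and differed by 0.50 ± 0.26 in adjacent gland (n = 4 and 3, limma adjusted p = 0.391).

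The Junb call depended on single arrays. It was lost without tumor 22 (limma adjusted p = 0.0505), tumor 50 (limma adjusted p = 0.0534), pool 41 (limma adjusted p = 0.116) or pool 42 (limma adjusted p = 0.0857), and with lot as a fixed block (log2 difference 0.35 ± 0.51, limma adjusted p = 0.816) or as a random block (0.78 ± 0.28, limma adjusted p = 0.0508). The second Junb probe set gave 1.21 ± 0.63 in tumors against wild-type gland (limma adjusted p = 0.162). It ranged from 347 to 2261 in tumors and from 214.7 to 759 in the pools, so the groups overlap.

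Fos, the partner of the Jun proteins in AP-1, was at 1834, 2349, 1272, 2675 and 2221 in the 5 tumors, 2547 and 1442 in set B, 1814, 1359, 2303 and 1455 in the adjacent glands, and 1682, 1244 and 1044 in the pools. Tumor 26 lies among the pools and the other 4 tumors above them. The log2 difference between tumors and wild-type gland was 0.63 ± 0.28 (n = 5 and 3, unadjusted p = 0.0381, limma adjusted p = 0.1), with a 95% interval of 0.04 to 1.22. Without tumor 26 it was 0.79 and was called (limma adjusted p = 0.0372). In the other 7 fits with 1 array left out it was not called (limma adjusted p up to 0.317). Nor was it called with lot as a fixed block (0.29 ± 0.55, limma adjusted p = 0.87) or as a random block (0.64, limma adjusted p = 0.143).

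Fosb, a close relative of Fos, was at 1188, 1806, 849.5, 502 and 798 in the tumors, 1028 and 1173 in set B, 1309, 2159, 984 and 786 in the adjacent glands, and 921, 844 and 832 in the pools. The pools lie within 1.11-fold of each other and inside the range of the tumors, with a log2 difference of 0.12 (95% interval -0.66 to 0.90, n = 5 and 3, limma adjusted p = 0.833). Tumors 22 and 24 and adjacent glands 23 and 25, all of lot 2001815, have the highest Fosb values of their groups. For Fosb the direction in tumors against wild-type gland was lower with lot as a block (-0.53 with a fixed block), and not called.

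Jun, the AP-1 subunit that MAP kinases of the JNK type switch on, was at 978, 719, 1123, 2055 and 1982 in the tumors, 1085 and 1014.5 in set B, 500.1, 701, 1419 and 1019.7 in the adjacent glands, and 940.4, 847 and 1131 in the pools. Tumors 50 and 52, of lot 2004097, are the high ones, and the tumors of lot 2001815 overlap the pools. The log2 difference between tumors and wild-type gland was 0.39 ± 0.37 (n = 5 and 3, limma adjusted p = 0.453). Without lot 2001815, a fit chosen after seeing the data, it was 1.06 (limma adjusted p = 0.00848). It was not called with lot as a fixed block (0.997 ± 0.48, limma adjusted p = 0.322) or as a random block (0.53, limma adjusted p = 0.32). In tumors against adjacent gland it was 0.58 (limma adjusted p = 0.305). There it was called with lot as a fixed block in which lots 2004097 and 2004907 were 1 lot (0.69, limma adjusted p = 0.036). With the lot numbers as given it was not called, either with the fixed block (0.64, limma adjusted p = 0.238) or within lot 2001815 (limma adjusted p = 0.442).

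Jund, the Jun family member that most tissues express without a stimulus, was bright on every array. It was at 28049.5, 13493, 28207, 58812 and 37258 in the tumors, 24382 and 21888 in set B, 25902, 25504, 44902 and 47429 in the adjacent glands, and 39096, 29209 and 38013 in the pools. The groups overlap for tumors, and in both tumors and adjacent glands the arrays of lot 2001815 hold the low values. The log2 difference in tumors against wild-type gland was -0.24 ± 0.36 (n = 5 and 3, limma adjusted p = 0.644), and its sign turned with lot as a fixed block (0.016).

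Egr1, the zinc finger factor that follows MAP kinase activity closely, was at 2650.1, 2603, 886, 1458 and 2263 in the tumors and at 1164 and 1271 in set B. The adjacent glands had 1986, 2109, 1611 and 1256, against 2127, 1974 and 3111 in the pools. No tumor group was called, and the mean lay below wild-type gland in each, by a log2 difference of -0.37 ± 0.32 in tumors (n = 5 and 3, limma adjusted p = 0.413) and -0.95 ± 0.40 in set B (n = 2 and 3, unadjusted p = 0.0315, limma adjusted p = 0.104). Both set B tumors lie below all pools. In a fit of these 2 groups alone the set B difference was called (limma adjusted p = 0.018). It was also called without lot 2001815, a fit chosen after seeing the data (limma adjusted p = 0.0241). Apart from fits with single arrays left out, the other 7 alternatives made no call (limma adjusted p up to 0.186). Among them was lot as a random block (limma adjusted p = 0.156).

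Atf3, a repressor of the CREB family that cell stress induces, was at 983, 1559, 1392, 821 and 1112 in the tumors, 1597 and 971.5 in set B, 1446, 1344, 1007 and 1629 in the adjacent glands, and 1058.5, 941 and 987 in the pools. The groups overlap, with a log2 difference of 0.20 ± 0.25 in tumors against wild-type gland (n = 5 and 3, limma adjusted p = 0.581). Its second tested probe set gave 0.96 ± 0.42 (limma adjusted p = 0.0966).

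**Figure D4:**
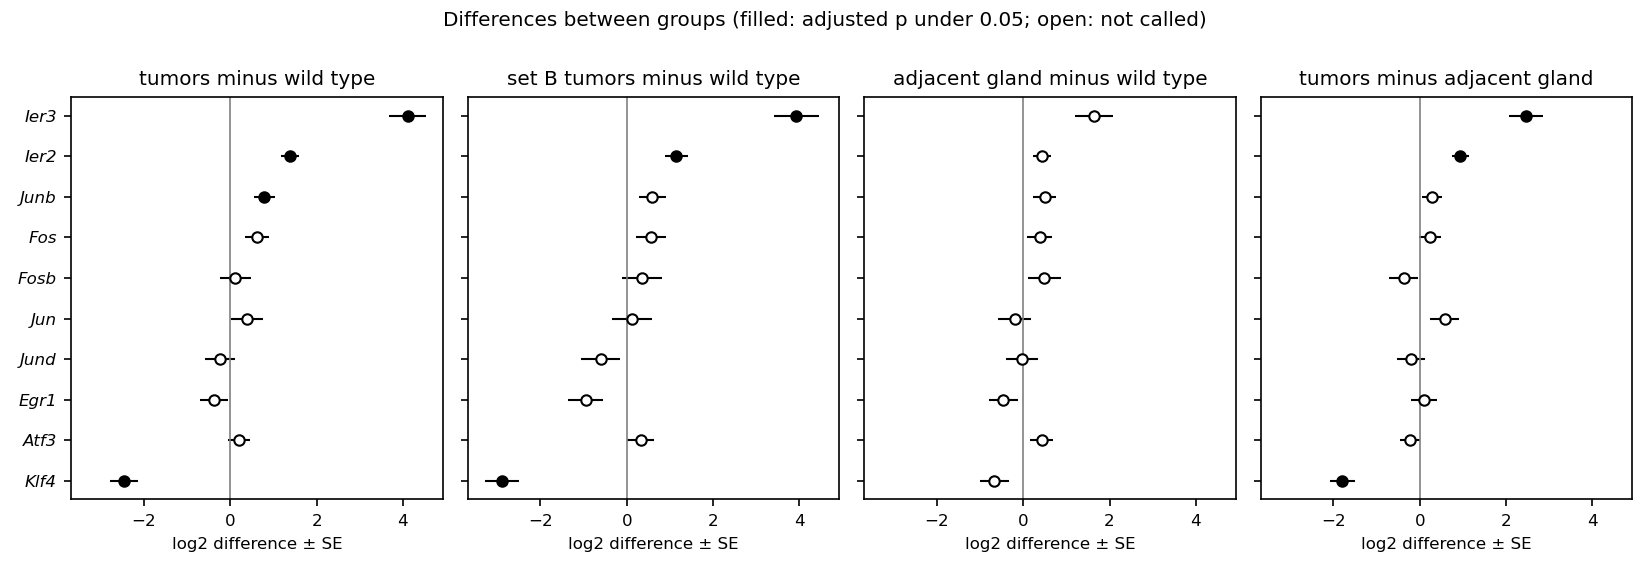
Log2 difference of each member with its standard error in 4 comparisons, filled where limma's adjusted p was under 0.05. Against wild-type gland, Ier3, Ier2 and Klf4 are filled for both tumor sets and Junb for the first; tumors minus adjacent gland has Ier3, Ier2 and Klf4 filled, and adjacent gland minus wild type has no filled point.

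Tumors against adjacent gland had 3 of 10 members called, Ier3 and Ier2 higher and Klf4 lower, where limma called 15.0% of all genes (5.75% higher and 9.29% lower). For the same members all tumors lay above (Ier3, Ier2) or below (Klf4) all adjacent glands, as 5.28% and 8.21% of all genes did. In adjacent gland against wild-type gland limma called 1.25% of all genes and 0 members, and 1 member had an unadjusted p under 0.05. All 4 adjacent glands lay above all 3 pools for Ier3 and Junb and below them for Klf4, where 7.49% of all genes lay wholly above and 7.55% wholly below. The comparisons with wild-type gland share the same 3 pools, and those of tumors and adjacent gland share their arrays too, so they are not independent.

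Set B gives the same members measured in other tumors, though against the same pools. Ier3 rose 15.2-fold in set B against wild-type gland (log2 difference 3.93 ± 0.53, n = 2 and 3, limma adjusted p = 7.6e-05), number 17 among all rises. Klf4 fell by 2.89 ± 0.40, or 7.42-fold (n = 2 and 3, limma adjusted p = 0.000103), and Ier2 rose 2.22-fold (1.15 ± 0.26, n = 2 and 3, limma adjusted p = 0.00476). Those 3 of 10 members stand beside 23.6% of all genes called. Both set B tumors lay above all pools for 3 members (Ier3, Ier2 and Fosb) and below them for 3 (Klf4, Egr1 and Jund), where 29.7% of all genes lay wholly above and 28.1% wholly below. Without set B tumor 80 the Ier2 difference was 0.92 and was not called (limma adjusted p = 0.0784). Junb differed by 0.59 ± 0.31 (n = 2 and 3, limma adjusted p = 0.195) and was called without set B tumor 81 (1.17, limma adjusted p = 0.0293).

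Set B against the first tumors had no member called and none with an unadjusted p under 0.05, in a comparison in which limma called 0.00% of all genes. No member had both set B tumors above or below all 5 others, where 6.35% of all genes lay wholly above and 9.82% wholly below. The 95% intervals of the log2 difference were -1.20 to 0.84 for Ier3, -1.20 to 0.36 for Klf4 and -0.73 to 0.28 for Ier2, with n = 2 and 5. In the order of group means, Ier3 and Ier2 run tumors, set B, adjacent gland, wild-type gland, and Klf4 runs the other way but for set B at the lowest level. Neighbours in those orders that did not pass the test are tumors and set B, and adjacent and wild-type gland. Set B and adjacent gland, neighbours in the order of Ier3 and Ier2, were not tested against each other.

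RNA quality also differed. The log2 ratio of the 3′ to the 5′ actin control probe sets was 0.08 to 0.76 in tumors, 0.14 to 0.21 in set B, 0.38 to 1.52 in adjacent gland and 0.90 to 1.51 in wild-type gland. The same ratio for Gapdh was -0.25 to 0.43 in tumors, -0.50 to -0.28 in set B, -0.27 to 0.27 in adjacent gland, and 0.17, 0.11 and 1.48 in pools 40, 41 and 42, so pool 42 stands apart. The part of RNA quality in the differences of the members was not tested.

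Beyond the members, 30 other immediate early genes were listed, of which 22 were measured. In tumors against wild-type gland 9 rose and 3 fell, beside 15.8% of all genes called higher and 14.7% called lower, with a median log2 difference of 0.00 beside 0.13 for all genes. Cxcl1, a chemokine for neutrophils, rose most (log2 difference 3.00 ± 0.34, limma adjusted p = 6.88e-06, 1 of 3 pools at the floor), and Nr4a1, an orphan nuclear receptor, rose by 2.21 ± 0.38 (limma adjusted p = 0.000405). Egr2, the relative of Egr1, fell 3.99-fold (limma adjusted p = 0.00227). The other 2 that fell, named after their values were seen, were Dusp1, a phosphatase that switches MAP kinases off (log2 difference -1.10 ± 0.18, limma adjusted p = 0.000258), and Nfkbia, the inhibitor of NF-kappaB (-0.87 ± 0.17, limma adjusted p = 0.00101). With lot as a fixed block 1 of the 22 was called, Cxcl1 (3.13, limma adjusted p = 0.00367). Without lot 2001815 the count was 6, with 3 higher and 3 lower.

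In adjacent gland against wild-type gland, Cxcl1 was the one gene of the 22 called, in a comparison with 1.25% of all genes called. It ranged from 548 to 830.5 in adjacent gland and from 53.3 to 263 in wild-type gland (log2 difference 1.96 ± 0.35, n = 4 and 3, limma adjusted p = 0.0153). Without lot 2001815 the difference was 1.75 and was not called (limma adjusted p = 0.0561), and without pool 40 it was 1.55 (limma adjusted p = 0.0568). In tumors against adjacent gland 3 of the 22 rose and 4 fell, beside 5.75% of all genes called higher and 9.29% called lower, and 4 were called with lot as a fixed block. Nr4a1 rose (1.74 ± 0.35, limma adjusted p = 0.00286), Egr2 fell by 1.44 ± 0.39 (limma adjusted p = 0.0205), and Nfkbia fell by 1.32 ± 0.15 (limma adjusted p = 2.17e-05). All 5 tumors had Nfkbia at 2720.3 to 3619, below the 6343 to 8742 of the adjacent glands. Egr2 was at -1.86 with lot as a fixed block and was not called (limma adjusted p = 0.0656), nor was it without tumor 22 (limma adjusted p = 0.0543), adjacent gland 25 (limma adjusted p = 0.0681) or adjacent gland 49 (limma adjusted p = 0.0501). Without lot 2001815 neither Nr4a1 (1.25, limma adjusted p = 0.183) nor Egr2 (limma adjusted p = 0.242) was called.

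Of 23 kinases and factors that switch on immediate early genes, 12 were measured and 0 were called by limma in tumors against wild-type gland, beside 30.6% of all genes, with 2 at an unadjusted p under 0.05. These were Map2k2, a MAP kinase kinase (log2 difference 0.63, limma adjusted p = 0.061), and Mapk14, the p38 kinase (-0.34, limma adjusted p = 0.0953). Of 18 other bZIP and AP-1 factors, 12 were measured and 1 rose, Cebpb, a factor of mammary epithelial growth (1.18 ± 0.28, limma adjusted p = 0.00461). It was not called with lot as a fixed block (1.32, limma adjusted p = 0.281).

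Of 14 genes with known AP-1 sites, 10 were measured, and in tumors against wild-type gland 2 rose and 2 fell, again beside 30.6% of all genes called. Hmox1, the heme-degrading enzyme, rose (1.82 ± 0.23, limma adjusted p = 1.92e-05), and so did Ccnd1, cyclin D1 of the cell cycle (1.12). Mmp3 and Mmp9, proteases of the matrix that AP-1 is known to drive, fell: Mmp3 by 3.99 ± 0.66 (limma adjusted p = 0.000281, 1 tumor at the floor), while Mmp9 was at the floor in all 5 tumors and at least 6.57-fold lower than in wild-type gland (limma adjusted p = 0.00212). Fibroblasts also make Mmp3, and the part of the low fibroblast marker sums of the tumors was not tested. The list of heat shock genes, chaperones that cell stress induces, had 10 of 11 genes measured. In tumors against wild-type gland 2 rose, 0 fell and 8 were not called, beside 30.6% of all genes called. The median log2 difference of the list was 0.19, beside 0.13 over all genes. Hspa1a, the inducible HSP70, rose (1.57 ± 0.45, limma adjusted p = 0.0148), with 1557 to 10983 in tumors and 1181 to 1478 in the pools, and was not called without pool 42 (1.48, limma adjusted p = 0.0615). Hspa5, a chaperone of the endoplasmic reticulum, rose by 0.79 ± 0.21 (limma adjusted p = 0.00922). With lot as a fixed block neither Hmox1 (1.37, limma adjusted p = 0.115) nor Hspa1a (0.67, limma adjusted p = 0.816) was called, and the same held for Ccnd1, Mmp3, Mmp9 and Hspa5. Over the alternatives other than leaving out single arrays, the Mmp9 log2 difference ran from -3.58 to -0.086, so its size depended on the setting.

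**Figure D5:**
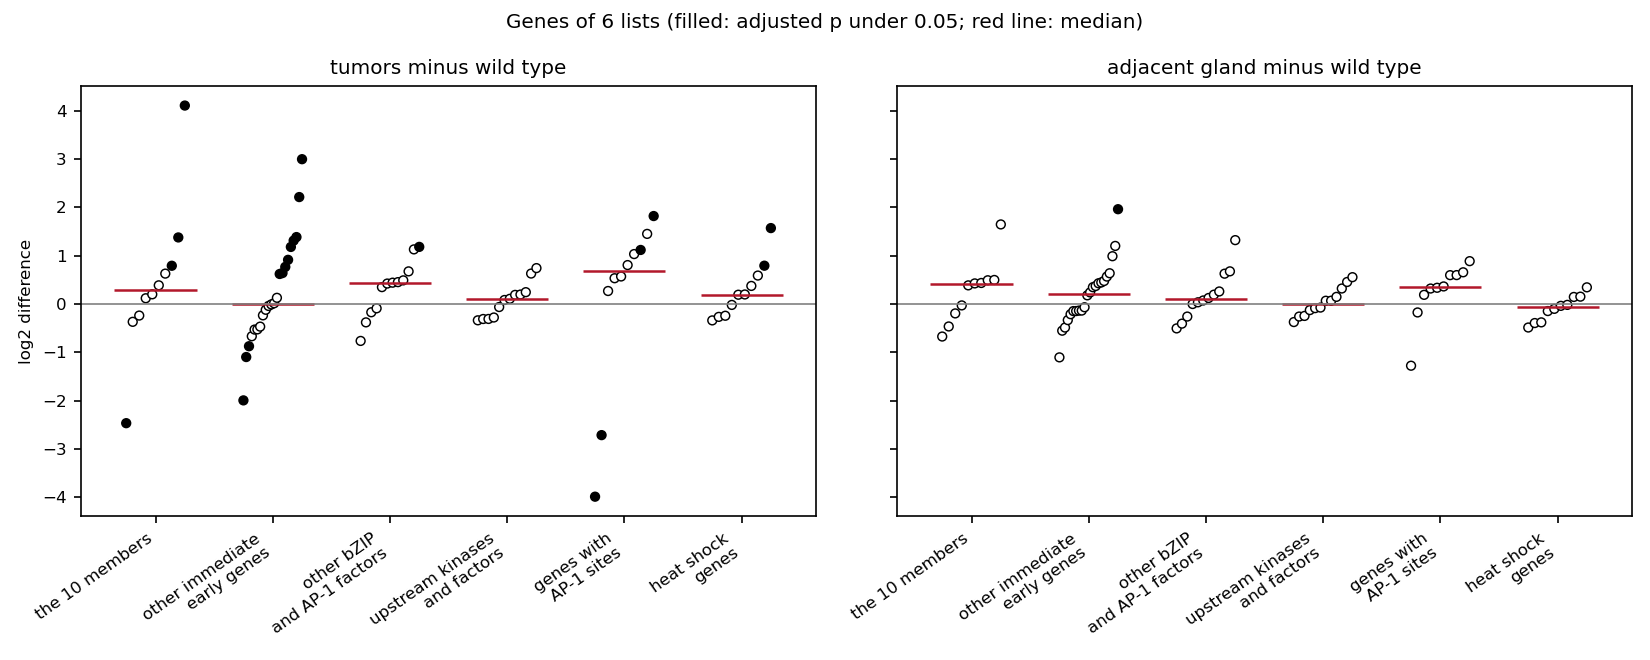
Log2 difference of each measured gene of 6 lists in tumors and in adjacent gland against wild-type gland, filled where limma's adjusted p was under 0.05, with the list's median as a red line. Among the 22 other immediate early genes, filled points lie on both sides of 0 in tumors, and Cxcl1 is the one filled point in adjacent gland.

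The genes whose pattern over the 14 arrays was most like that of a member were ranked by the root mean square of the differences in log2 intensity, each gene centred on its own mean. The nearest to Ier3 were Tpd52l1 (0.474), Tspan8 (0.482) and Aldoc (0.488). For Klf4 they were Gjb2 (0.335), Tpp2 (0.36) and Plbd1 (0.361), and for Ier2 they were Ezr (0.18), Fndc3a (0.185) and Cinp (0.187). Among the members themselves, Fos and Junb were closest (0.258) and Ier3 and Klf4 farthest apart (2.839). This distance describes these arrays, which share their groups and lots.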

How the data were processed

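RNA of 14 samples was hybridised to 1-color oligonucleotide arrays. In the table the authors deposited, each of 12488 probe sets has 1 linear intensity per array, and the software behind it is not given in the sources. The mean after trimming 2% at each end was 1500.67 to 1500.9 on every array, so the deposited intensities were taken as scaled already. Array medians were 543.7 to 784.1. Precision is limited by the number of arrays.

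Values under 101.42 (the 20th percentile, the floor) were raised to it and log2 was taken. Of 12422 probe sets that are not controls, 8616 lay above the 40th percentile of the array on 3 or more arrays and were tested. Platform symbols were updated by gene number; 10855 probe sets name 1 gene, 396 several and 1237 none. A gene was represented by its probe set of highest mean log2 intensity. All 14 arrays entered 1 model in limma 3.58.1 under R 4.3.3 (lmFit, eBayes with an intensity trend), with two-sided p-values adjusted by Benjamini and Hochberg over all probe sets tested, and calls were made at an adjusted p under 0.05. The fit was tested on simulated data. Motifs, figures and marker sums were made in Python 3.11.15.

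The members and gene lists were chosen with earlier results of these data known. All members are named; from each other list up to 3 called genes with the largest difference are named in a comparison, or up to 2 with the smallest p. Exceptions are said to be chosen after their values were seen. Alternatives were the floor, the filter, quantile normalization, the trend, the arrays fitted, lot as a block, single lots, each array left out, and the mean over probe sets.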

Additional observations from a re-analysis of the deposited data

How the results depend on the processing

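No paired analysis was made, because the groups share no replicate numbers and the labels name no pairs of tumor and gland. Whether any tumor and adjacent gland came from the same animal is unknown. A fixed block on lot gave no value for set B, which is a lot of its own, and single lots gave values only where they hold both groups. The fits without lot 2001815 and with lots 2004097 and 2004907 only, whose numbers differ by a transposition, were chosen after seeing the data. Where 1 set B tumor was left out, the other is assumed to vary like the other groups.

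The count of members called in tumors against wild-type gland was 4, and it was 2 with lot as a fixed block and 1 with lots 2004097 and 2004907 only. In tumors against adjacent gland it was 3, and it was 2 with lot as a fixed block, 4 with lots 2004097 and 2004907 as 1 lot in that block, 0 in lot 2001815 only and 1 with lots 2004097 and 2004907 only. In adjacent against wild-type gland it was 0, and 1 without lot 2001815. With each array left out in turn, the count ran from 3 to 5 in tumors against wild-type gland, from 3 to 3 against adjacent gland, from 0 to 1 in adjacent against wild-type gland, from 2 to 4 in set B against wild-type gland and from 0 to 0 in set B against the first tumors. Ier3, Ier2 and Klf4 kept their calls in each of these fits of tumors against wild-type or adjacent gland. No called difference of a member turned its sign under any alternative. Among those not called, 16 did, 55 times in all over the settings. With lots 2004097 and 2004907 only, Klf4 was not called in tumors against wild-type gland (-1.95, limma adjusted p = 0.0613) or adjacent gland (-1.42, limma adjusted p = 0.104).

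The differences that turned sign, none called either way, were these. In tumors against wild-type gland, with lot as a fixed block, as a fixed block with lots 2004097 and 2004907 as 1 lot, without lot 2001815, and with lots 2004097 and 2004907 only, Fosb was -0.53, -0.54, -0.45 and -0.54 and Jund was 0.016, 0.19, 0.41 and 0.26. With the last 3 of these, Atf3 was -0.064, -0.057 and -0.15, and with lot as a random block Fosb was -0.016. In adjacent against wild-type gland, under the same 4 settings, Jun was 0.36, 0.38, 0.32 and 0.36 and Jund was 0.24, 0.31, 0.39 and 0.24. Fosb was -0.068, -0.071 and -0.068 under these settings but for the fit without lot 2001815. Within lot 2004907 Fosb was -0.068, Jun 0.36 and Jund 0.24, and Jund was 0.064 with a random block and 0.063 with quantile normalization. In tumors against adjacent gland, Egr1 was -0.16 with lot as a fixed block and within lot 2001815, and Jund was 0.021 without that lot and with lots 2004097 and 2004907 only. Ier3 in set B against the first tumors was 0.044 with quantile normalization. With the mean over probe sets, Atf3 was 0.050 in tumors against adjacent gland and -0.015 in set B against the first tumors, where Junb was 0.099. The cause was not tested.

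With each array left out, sign turned within these ranges. In tumors against wild-type gland Fosb ran from -0.12 to 0.34 and Jund from -0.48 to 0.046. In tumors against adjacent gland Jund ran from -0.46 to 0.075 and Egr1 from -0.051 to 0.36. In adjacent against wild-type gland Jun ran from -0.44 to 0.057 and Jund from -0.18 to 0.12. For Atf3 in set B against wild-type gland the range was -0.034 to 0.68. In set B against the first tumors the ranges were -0.48 to 0.34 for Fos, -0.0002 to 0.46 for Fosb, -0.78 to 0.38 for Junb, -0.46 to 0.0041 for Ier2, -0.67 to 0.32 for Ier3 and -0.23 to 0.48 for Atf3.

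Counts of all probe sets called moved by more than 1.5 times in these cases. In tumors against wild-type gland 2574 were called, 360 with lot as a fixed block, 921 with lots 2004097 and 2004907 as 1 lot in the block, and 661 with those lots only. Against adjacent gland 1239 were called, 597 with the fixed block, 209 within lot 2001815 and 489 with lots 2004097 and 2004907 only. In adjacent against wild-type gland 101 were called, 53 without the filter, 28 with the arrays of the 2 groups only, 56 and 26 with the fixed blocks, 0 within lot 2004907, 19 with lots 2004097 and 2004907 only, 157 without lot 2001815, and from 14 to 200 with each array left out. In set B against wild-type gland 1998 were called, and 1138 and 1053 without tumor 80 or 81. Set B against the first tumors had 0, and up to 3 with an array left out.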
